A study of Mus musculus with 6 samples.

Results

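Bone morphogenetic protein (BMP) signalling was followed through 10 genes in RNA from the visceral fat of obese mice with and without deletion of Hmox1, the gene of heme oxygenase-1 (HO-1), in adipose precursors (APs). The genes are the ligands Bmp2, Bmp4 and Bmp6, the receptors Bmpr1a, Bmpr2 and Acvr1, the extracellular antagonists Grem1 and Bmper, and the pathway targets Id1 and Smad6. Each was taken by its symbol in the annotation of the array platform, and each had 1 probeset (the set of array probes that measures a gene) with no second gene assigned to it, so all 10 were found among 19938 named genes. Of these, 8 passed the filter on low values, a log2 intensity above 7 on at least 3 of the 6 arrays, which 11024 genes passed. By RefSeq (GRCm38.p6), Bmp2, Acvr1, Grem1 and Id1 lie on chromosome 2, Bmp4 and Bmpr1a on 14, Bmper and Smad6 on 9, Bmp6 on 13 and Bmpr2 on 1. Bmp2, above that level on 2 arrays, and Grem1, above it on 0 arrays, were not tested.

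The Hmox1f/f PdgfraCre mice carry loxP-flanked Hmox1 and a Cre recombinase driven by the Pdgfra promoter, and the Hmox1f/f mice carry the same floxed alleles without Cre, so the effect of Cre itself and of the lost gene cannot be told apart. There were 3 arrays of each genotype, numbered 1 to 3 for Hmox1f/f PdgfraCre and 4 to 6 for Hmox1f/f, and each held a pool of 2 mice on C57BL/6J background fed a high-fat diet (HFD) for 8 weeks from 6 weeks of age. Pdgfra is also active outside APs, in other mesenchymal and glial lineages, so the deletion need not be limited to precursors. The submitters' descriptions give the material both as perigonadal visceral fat (viWAT) and as APs purified from it with magnetic beads.

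BMPs are secreted dimers of the TGF-beta superfamily. They bring together type I and type II serine/threonine kinase receptors, and the type I receptor then phosphorylates Smad1, Smad5 and Smad9, which enter the nucleus with Smad4 and switch on genes such as the Id family. Antagonists outside the cell trap the ligands, and inhibitory Smads, themselves switched on by the pathway, restrain it from within. In fat, BMP4 and BMP2 are known for committing mesenchymal precursors to the adipocyte lineage, and BMP6 is best known for controlling hepcidin and thereby body iron.

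The promoters of the genes with the smallest p, Bmp4, Bmpr1a, Bmpr2 and Bmper, and of the target Smad6 are shown so that the regulatory letters can be read beside the values. They come from RefSeq on build GRCm38.p6, which held 8 of the 10 genes (Bmp2 and Id1 had no entry), and run 5′ to 3′ on the gene's own strand from 250 bases before to 50 bases after an annotated start. Bmp4, Bmpr1a and Smad6 lie on the minus strand, and Bmpr2 and Bmper on the plus strand. Capitals mark matches on either strand to GGCGCC, a GC-rich motif of BMP Smads, to CAGAC, a Smad box, or to GTCTAGAC, the Smad palindrome, the last of which was searched after the sequences had been read. None of these 3 motifs contains another.
Bmp4 promoter (chr14:46390620-46390919): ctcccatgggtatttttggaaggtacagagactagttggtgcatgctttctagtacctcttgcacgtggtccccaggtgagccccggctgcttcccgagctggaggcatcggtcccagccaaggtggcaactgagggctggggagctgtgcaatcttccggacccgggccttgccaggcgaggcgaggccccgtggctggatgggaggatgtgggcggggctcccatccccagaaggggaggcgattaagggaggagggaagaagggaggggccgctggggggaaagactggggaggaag
Bmpr1a promoter (chr14:34502497-34502796): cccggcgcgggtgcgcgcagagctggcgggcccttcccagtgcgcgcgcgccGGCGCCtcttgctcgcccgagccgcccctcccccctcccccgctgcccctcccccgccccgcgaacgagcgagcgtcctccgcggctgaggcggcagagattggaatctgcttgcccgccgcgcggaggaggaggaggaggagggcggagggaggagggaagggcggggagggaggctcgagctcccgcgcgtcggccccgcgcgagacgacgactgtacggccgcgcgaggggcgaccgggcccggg
Bmpr2 promoter (chr1:59764029-59764328): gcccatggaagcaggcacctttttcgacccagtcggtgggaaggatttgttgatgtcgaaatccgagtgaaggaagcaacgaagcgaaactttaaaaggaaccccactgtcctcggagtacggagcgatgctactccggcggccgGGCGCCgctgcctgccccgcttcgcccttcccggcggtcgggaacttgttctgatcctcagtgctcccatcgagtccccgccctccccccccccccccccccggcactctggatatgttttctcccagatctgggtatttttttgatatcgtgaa
Bmper promoter (chr9:23222826-23223125): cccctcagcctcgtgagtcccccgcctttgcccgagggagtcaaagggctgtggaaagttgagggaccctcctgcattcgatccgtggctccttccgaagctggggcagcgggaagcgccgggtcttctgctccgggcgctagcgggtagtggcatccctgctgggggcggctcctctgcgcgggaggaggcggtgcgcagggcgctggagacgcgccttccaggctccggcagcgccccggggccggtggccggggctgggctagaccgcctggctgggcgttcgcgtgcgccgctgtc
Smad6 promoter (chr9:64022010-64022309): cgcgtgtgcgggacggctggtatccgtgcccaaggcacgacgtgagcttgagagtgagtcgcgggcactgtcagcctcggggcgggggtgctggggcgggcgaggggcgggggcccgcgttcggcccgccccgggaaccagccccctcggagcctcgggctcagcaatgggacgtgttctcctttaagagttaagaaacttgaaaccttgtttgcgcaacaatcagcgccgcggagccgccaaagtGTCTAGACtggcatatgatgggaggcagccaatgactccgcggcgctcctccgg

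GGCGCC stood 198 bases before the start of Bmpr1a, 105 before that of Bmpr2 and 78 before that of Grem1, that is in 3 of 8 promoters, while 11.9% of the 32851 promoters in the table hold it. CAGAC was found in Bmp6 and Grem1, in 2 of 8, and is held by 49.6% of all promoters. The Smad6 window held GTCTAGAC, which begins 4 bases before the start and which 0.213% of all promoters contain. Because this motif was searched after the sequences had been read, its rarity carries no weight here. The Bmp4 and Bmper windows held none of these motifs, and neither did that of Acvr1, which is not shown. All 8 windows were richer in G and C than the median promoter (52.67%), at 64% for Bmp4, 79.33% for Bmpr1a, 59.33% for Bmpr2, 72.67% for Bmper and 66.33% for Smad6. GGCGCC consists of G and C alone, and its share of 11.9% was taken over all promoters, not over promoters of like G and C content. These matches describe sequence and were not measured as binding.

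Hmox1 was checked first. It was at a log2 intensity of 11.25, 11.36 and 10.74 on Hmox1f/f PdgfraCre arrays, against 11.90, 11.63 and 12.32 on Hmox1f/f arrays. Its mean was 11.12 ± 0.33 in Hmox1f/f PdgfraCre and 11.95 ± 0.34 in Hmox1f/f (SD, n = 3 each), and all 3 arrays with Cre lay below the 3 without, although its limma adjusted p was 0.1996 and whether the probes cover the deleted exon is not known. Median intensity per array ran from 111 to 113 with Cre and from 106 to 115 without, and each array had between 10849 and 11108 genes over the filter level. AP markers were present (9 of 10 found, Ly6a not analysed here), with a mean level of 10.58 to 10.65 with Cre and 10.63 to 10.74 without. Markers of other cell types were high as well. Those of mature adipocytes averaged 12.80 to 12.95 with Cre and 12.55 to 12.74 without, those of macrophages 11.18 to 11.59 with Cre and 11.79 to 11.88 without, and those of endothelial cells 9.54 to 9.71 with Cre and 9.04 to 9.48 without. Pecam1, the gene of CD31, which bead purification of APs selects against, was at 10.33 to 10.56 with Cre and at 9.97 to 10.33 without. Epididymal genes stood out on single arrays, with a mean over 3 markers of 10.48 on Hmox1f/f PdgfraCre 1, against 5.38 and 6.68 on the other arrays with Cre, and of 7.86 on Hmox1f/f 6, against 5.50 and 5.99 on the other Hmox1f/f arrays. On Hmox1f/f PdgfraCre 3 the marker Adam7 was at 8.93, above its 7.85 on Hmox1f/f 6, while Lcn5 and Gpx5 were at 5.86 and 5.25 there. In such mixed RNA, fewer cells of a type and less RNA per cell cannot be told apart. Precision is limited by the number of arrays. Each p-value sets a difference against the spread between pools of mice, with the variance of each gene shrunk towards that of all genes fitted.

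In Hmox1f/f PdgfraCre mice, the ligand gene Bmp4 and the receptor genes Bmpr1a and Bmpr2 had higher signals on every array with Cre than on any array without, by 1.20-fold to 1.36-fold, and the antagonist gene Bmper had lower signals on every array with Cre, by 1.21-fold. Smad6 was also apart, by 1.13-fold. None of these differences passed an adjusted p of 0.05, which 0 of all 11024 genes did (0.00%) in limma. At an unadjusted p under 0.05 there were 4 of the 8 tested genes (Bmp4, Bmpr1a and Bmpr2 higher, Bmper lower), beside 1944 of all tested genes, or 17.6%. In the same terms 3 of 8 were higher with Cre, where 3.82% of all genes were, and 1 of 8 was lower, where 13.8% were. The values of the genotypes did not overlap in 5 of 8 (4 above, 1 below), against 27.0% of all genes, 5.82% with all Cre arrays above and 21.2% with all below. Most of the genes with an unadjusted p under 0.05 were lower with Cre (78.3%, or 61.7% after a further quantile normalization). The median difference of the 8 genes was 0.20 on the log2 scale, and that of all genes -0.03. Since the 10 genes were picked with results of these arrays already known, such counts describe them and are not a test.

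**Figure D1:**
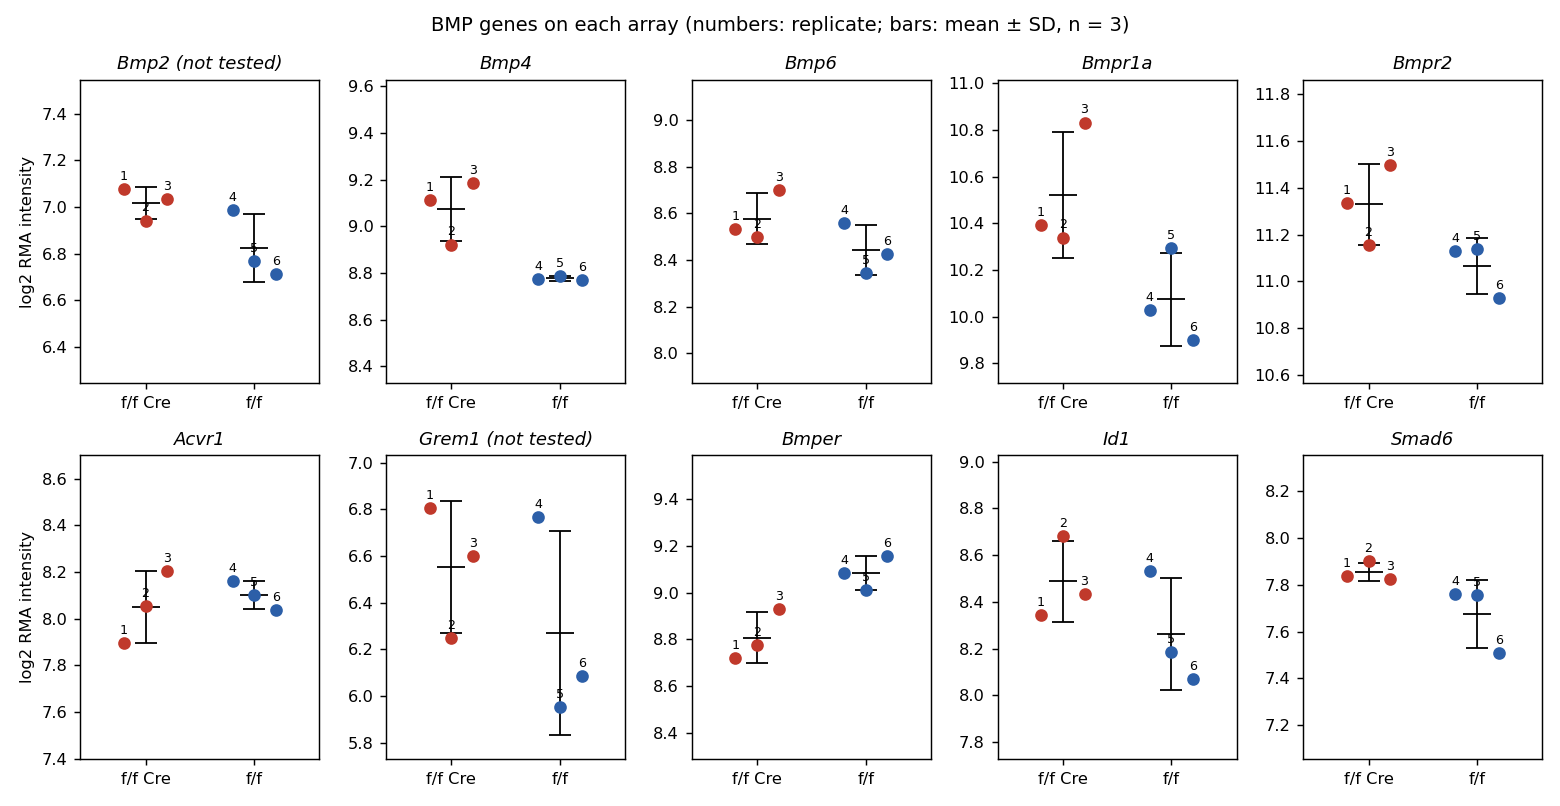
Log2 RMA intensity (vertical axis, the same span in every panel) of the 10 BMP genes on each Hmox1f/f PdgfraCre (red, f/f Cre) and Hmox1f/f (blue, f/f) array, numbered by replicate, with mean and SD (n = 3 per genotype). All 3 red points lie above the blue ones for Bmp4, Bmpr1a, Bmpr2 and Smad6 and below them for Bmper.

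Of the ligands, Bmp4 had the smallest p. Its log2 intensity was 9.11, 8.92 and 9.19 on the arrays with Cre, against 8.77, 8.79 and 8.77 on the Hmox1f/f arrays. The Hmox1f/f arrays were nearly identical (SD 0.01), and the spread lay among the arrays with Cre (SD 0.14), of which number 2 came nearest to the controls. The difference was 0.30 ± 0.09 (SE), a 1.23-fold higher signal (95% confidence interval 0.09 to 0.50). Its limma adjusted p was 0.209, and 578 of the genes tested had a smaller p. It stayed between 0.24 and 0.37 when single arrays were left out.

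Bmp6 was measured at 8.53, 8.50 and 8.70 with Cre and at 8.56, 8.34 and 8.43 without, so that the genotypes overlapped. Its difference was 0.13 ± 0.09 (SE; 95% confidence interval -0.08 to 0.35; adjusted p = 0.457 by limma), and without Hmox1f/f PdgfraCre 3 it was 0.07. Bmp2, which lay at the level of the filter, gave 7.08, 6.94 and 7.03 with Cre and 6.99, 6.77 and 6.71 without. Hmox1f/f 4 was above Hmox1f/f PdgfraCre 2 there, and the means differed by 0.19 (SD 0.07 with Cre and 0.15 without, n = 3 each). With no filter on low values the adjusted p of Bmp2 was 0.565 by limma.

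Few other ligand genes could be tested. Of 15 listed ligands 6 were tested, 5 of them with a positive difference, and their median was 0.10. Bmp4 was the single one with an unadjusted p under 0.05. Bmp3, a BMP family member that counteracts other BMPs, differed by 0.18 (adjusted p = 0.341 by limma), and Bmp7, Gdf7 and Gdf10 by -0.02, 0.04 and 0.06. The 8 ligands outside the 10 genes that failed the filter, Bmp5, Bmp8a, Bmp8b, Bmp10, Bmp15, Gdf2, Gdf5 and Gdf6, were at or below a log2 intensity of 7 on every array.

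Among the receptors, Bmpr1a, the type I receptor also called ALK3, had the widest difference of the 8 tested among the 10 BMP genes. It was at 10.39, 10.34 and 10.83 with Cre, against 10.03, 10.29 and 9.90 without. Hmox1f/f PdgfraCre 3 was far above the other arrays with Cre, and Hmox1f/f 5 was just below the lowest of them. The difference was 0.45 ± 0.16 (SE), or 1.36-fold (95% confidence interval 0.07 to 0.82), at a limma adjusted p of 0.235, and 134 of 11024 genes (1.22%) were higher by at least as much. Its unadjusted p of 0.0251 became 0.0569 without Hmox1f/f PdgfraCre 3 (difference 0.29), 0.0673 without Hmox1f/f 4 (0.42) and 0.0792 without Hmox1f/f 6 (0.36).

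Bmpr2, the type II receptor that pairs with Bmpr1a and Acvr1, was at 11.34, 11.15 and 11.50 with Cre and at 11.13, 11.14 and 10.93 without. The genotypes were separated by a narrow gap, between Hmox1f/f PdgfraCre 2 and Hmox1f/f 5. It differed by 0.27 ± 0.11 (SE), or 1.20-fold (95% confidence interval 0.00 to 0.53), at a limma adjusted p of 0.278. With all 6 arrays its unadjusted p of 0.0474 became 0.0572 with no filter on low values, 0.0542 with a filter at a log2 intensity of 6, 0.144 under the stricter filter of the methods and 0.0750 with arrayWeights. An unadjusted p under 0.05 was also lost whenever an array other than Hmox1f/f PdgfraCre 2 was left out. The difference was then 0.26 without Hmox1f/f PdgfraCre 1, 0.30 without Hmox1f/f 4 or 5, 0.18 with Hmox1f/f PdgfraCre 3 dropped and 0.20 with Hmox1f/f 6 dropped.

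Acvr1, the type I receptor ALK2, overlapped between the genotypes. Its values were 7.89, 8.06 and 8.20 with Cre and 8.16, 8.10 and 8.04 without, with the highest and the lowest both on arrays with Cre. The difference was -0.05 ± 0.10 (SE; 95% confidence interval -0.28 to 0.18; adjusted p = 0.7997 by limma), and it turned to 0.029 without Hmox1f/f PdgfraCre 1. Whether the difference of Acvr1 departs from that of Bmpr1a was not tested.

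Of 11 listed receptors and co-receptors 8 were tested, with a median difference of 0.15, and 3 had an unadjusted p under 0.05, all higher with Cre, where 3.82% of all genes tested were higher and 17.6% passed in either direction. Besides Bmpr1a and Bmpr2 this was Rgma, a membrane-anchored co-receptor that raises sensitivity to BMPs. Rgma was at 9.47, 9.38 and 9.46 with Cre, against 9.19, 9.14 and 9.19 without. The Rgma difference of 0.26 ± 0.07 (SE; adjusted p = 0.1996 by limma) kept an unadjusted p under 0.05 in all 15 other settings in which the gene was tested. The type II receptor Acvr2a differed by 0.20, the endothelial co-receptor gene Eng by 0.09, its partner Acvrl1 by -0.06 and the second co-receptor Rgmb by -0.05. Bmpr1b, Acvr2b and Hjv failed the filter.

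The antagonist gene Bmper, whose product binds BMPs in the matrix and shapes their action on endothelial cells, ran the other way. It was at 8.72, 8.77 and 8.93 with Cre, against 9.08, 9.01 and 9.16 without. Every array with Cre was below every Hmox1f/f array. This difference of -0.28 ± 0.09 (SE; 95% confidence interval -0.48 to -0.08), a signal 1.21-fold lower, had a limma adjusted p of 0.210, and it lay between -0.34 and -0.23 with single arrays left out. Grem1, a secreted trap for BMP2 and BMP4, was dim, at 6.81, 6.25 and 6.60 with Cre and 6.77, 5.95 and 6.09 without. The spread within each genotype (SD 0.28 with Cre and 0.44 without, n = 3 each) was as wide as the difference of 0.28, and with no filter its adjusted p was 0.687 by limma. The Grem1 difference was 0.53 without Hmox1f/f 4, 0.43 with Hmox1f/f PdgfraCre 2 dropped, 0.15 with Hmox1f/f PdgfraCre 1 dropped and 0.12 with Hmox1f/f 5 dropped.

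Antagonists as a list held differences of both signs. Of the 17 found on the arrays 10 were tested, 4 higher and 6 lower with Cre, with a median of -0.04. The 3 with an unadjusted p under 0.05 were all lower: Bmper, Nbl1, which encodes the antagonist DAN, and Fstl1, a secreted glycoprotein known to bind BMP4. Of all genes tested, 13.8% were lower and 3.82% higher at that level, so that most calls of any kind were lower. Fstl1 was at 11.53, 11.69 and 11.59 with Cre, against 11.95, 11.88 and 11.88 without, a difference of -0.30 ± 0.08 (SE; adjusted p = 0.1996 by limma). For Nbl1 the values were 8.34, 8.09 and 8.13 with Cre and 8.55, 8.39 and 8.49 without, a difference of -0.29 ± 0.09 (SE; adjusted p = 0.215 by limma), which no longer had an unadjusted p under 0.05 when Hmox1f/f PdgfraCre 2 (-0.25) or Hmox1f/f 4 (-0.25) was dropped. On the other side stood Chrdl1, a chordin-like antagonist, at 0.35, and Crim1, a membrane protein that holds BMPs, at 0.29 (adjusted p = 0.295 and 0.29998 by limma). Noggin, Nog, differed by -0.04 and follistatin, Fst, by -0.05.

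**Figure D2:**
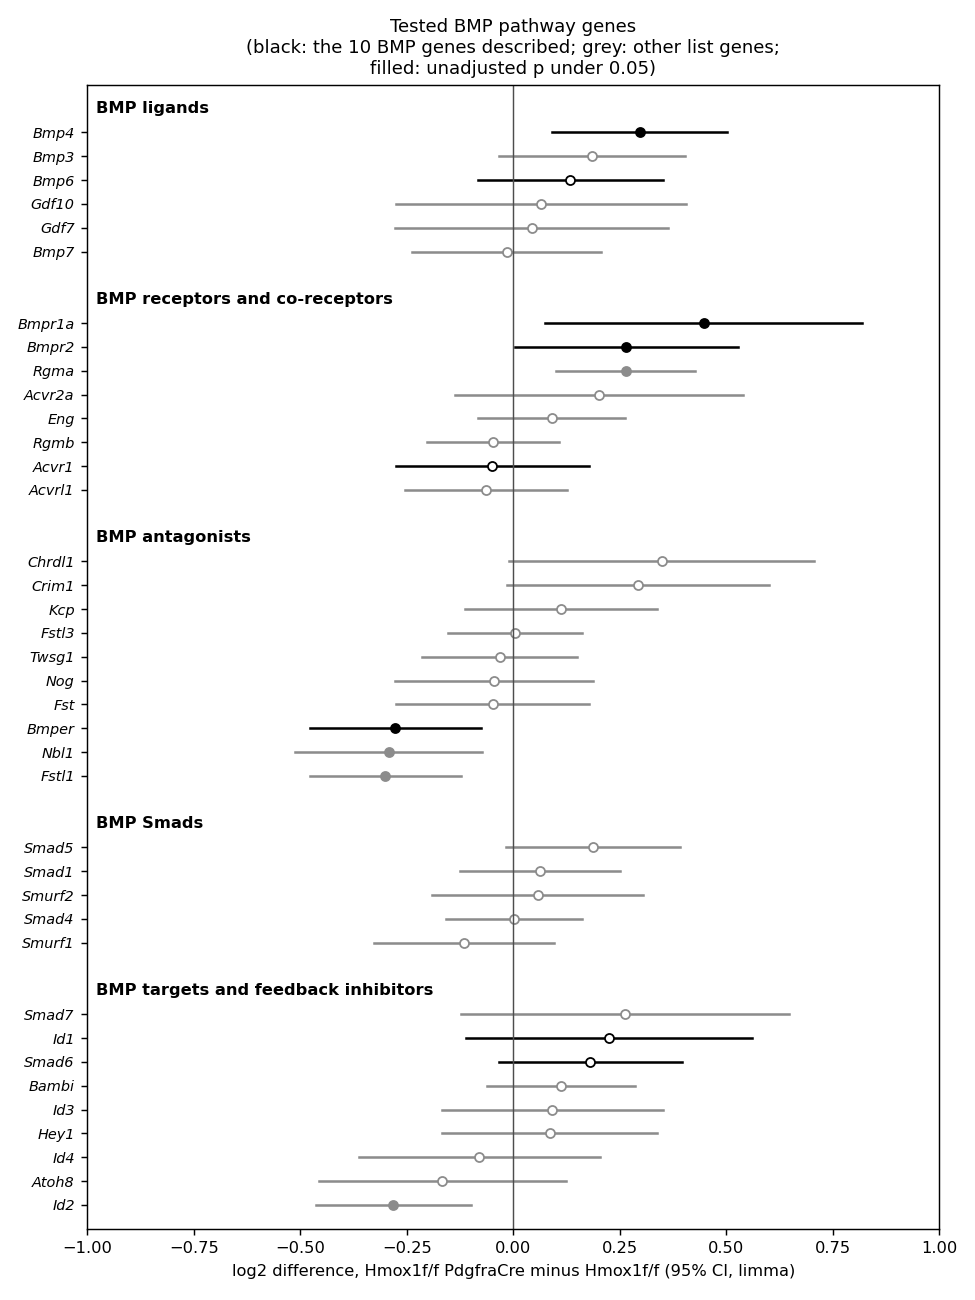
Log2 difference between Hmox1f/f PdgfraCre and Hmox1f/f (horizontal axis) with its 95% confidence interval from limma for the 38 tested genes of the BMP lists, by role. Black marks the 10 genes described (8 tested) and filled points an unadjusted p under 0.05: Bmp4, Bmpr1a, Bmpr2 and Rgma lie to the right, Bmper, Nbl1, Fstl1 and Id2 to the left.

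The readouts of the pathway inside the cell, Id1 and Smad6, did not reach an unadjusted p under 0.05. Id1, a helix-loop-helix inhibitor and a direct BMP target, was at 8.34, 8.68 and 8.43 with Cre and at 8.53, 8.18 and 8.07 without. Hmox1f/f PdgfraCre 2 was the highest array and Hmox1f/f 6 the lowest, and Hmox1f/f 4 lay among the arrays with Cre. The Id1 difference of 0.22 ± 0.14 (SE; 95% confidence interval -0.11 to 0.56; adjusted p = 0.429 by limma) was 0.36 without Hmox1f/f 4, where its unadjusted p was 0.0287. Dropping Hmox1f/f PdgfraCre 2, or instead Hmox1f/f 6, gave 0.13.

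Smad6, the inhibitory Smad that closes the feedback loop of the pathway, was at 7.84, 7.90 and 7.83 with Cre, against 7.76, 7.75 and 7.51 without. Each array with Cre was above each array without, and Hmox1f/f 6 was the lowest by far. The difference was 0.18 ± 0.09 (SE; 95% confidence interval -0.03 to 0.40; adjusted p = 0.340 by limma), and 0.10 without Hmox1f/f 6.

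The other targets split. Of 11 listed targets and feedback inhibitors 9 were tested, 6 higher and 3 lower, with a median of 0.09. Id2, a helix-loop-helix inhibitor like Id1, was the single one with an unadjusted p under 0.05, at 9.32, 9.36 and 9.21 with Cre and 9.51, 9.63 and 9.59 without, a difference of -0.28 ± 0.08 (SE; adjusted p = 0.202 by limma), opposite in sign to that of Id1. Under the stricter filter of the methods the unadjusted limma p of Id2 was 0.0965. Id3 differed by 0.09 and Id4 by -0.08. Smad7, the second inhibitory Smad, differed by 0.26 and had its highest value on Hmox1f/f PdgfraCre 3 (7.83, against 7.20 and 7.28 on the other arrays with Cre), and the decoy receptor gene Bambi differed by 0.11. Of the signal carriers, Smad5 differed by 0.19 (adjusted p = 0.311 by limma), Smad1 by 0.06, the shared partner Smad4 by 0.00 and the ubiquitin ligases Smurf1 and Smurf2 by -0.12 and 0.06.

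Over all lists, 60 genes were found and 38 tested, with 24 higher, 14 lower and a median of 0.06. Of these 38, 4 were higher and 4 lower at an unadjusted p under 0.05. Among the 30 that are not of the 10 genes, 1 was higher and 3 were lower, beside 3.82% and 13.8% of all genes.

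Single arrays stood at the ends of the range for several of the 10 genes. Hmox1f/f 6 was the lowest array for 6 of the 10 (Bmp2, Bmp4, Bmpr1a, Bmpr2, Id1 and Smad6) and the highest for Bmper. For Bmp4 the gap was tiny, with rounded intensities of 438, 442 and 436 on Hmox1f/f 4, 5 and 6. Hmox1f/f PdgfraCre 3 was the highest for 5 (Bmp4, Bmp6, Bmpr1a, Bmpr2 and Acvr1). Endothelial markers had their lowest mean on Hmox1f/f 6 as well (9.04) and their highest on Hmox1f/f PdgfraCre 3 (9.71). All 10 endothelial markers were higher with Cre, 7 at an unadjusted p under 0.05, with a median of 0.37. All 9 macrophage markers were lower with Cre, 8 at an unadjusted p under 0.05, with a median of -0.42, and their lowest mean was on Hmox1f/f PdgfraCre 3 (11.18). Of 8 mural markers 6 were higher (median 0.12, lowest mean 8.69 on Hmox1f/f 6), and 3 had an unadjusted p under 0.05 (Rgs5 and Abcc9 higher, Des lower). The 8 adipocyte markers were all higher, 3 at an unadjusted p under 0.05, with a median of 0.16. Their mean too was lowest on Hmox1f/f 6 (12.55) and highest on Hmox1f/f PdgfraCre 3 (12.95). Of 9 AP markers 3 were higher and 6 lower (median -0.07), among them Pdgfra with a difference of -0.17. An unadjusted p under 0.05 was reached by 2 AP markers, Col3a1 and Pi16, which were lower. Of 7 mesothelial markers 6 were lower (median -0.18), and 1 had an unadjusted p under 0.05. No marker of these lists was below a log2 intensity of 7 on all arrays. Of all genes tested, 3.82% were higher and 13.8% lower at an unadjusted p under 0.05. The part of these cell types and of the epididymal signal in the BMP gene differences was not tested.

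**Figure D3:**
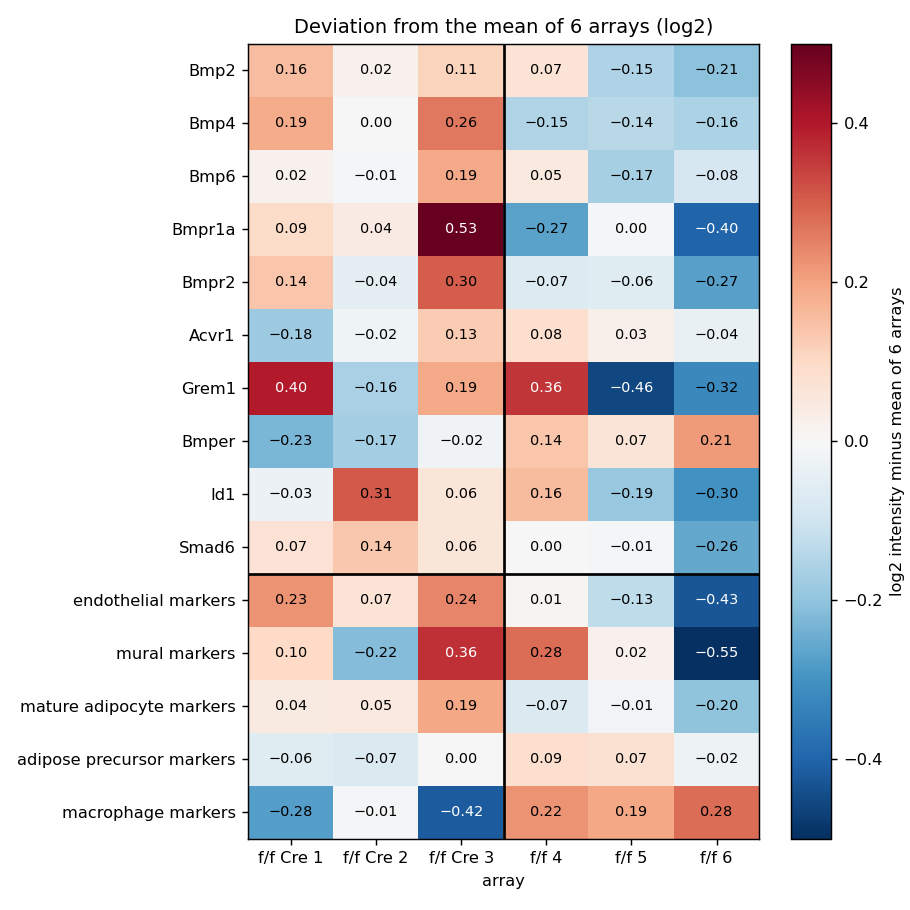
Log2 intensity minus the mean of the 6 arrays (colour, cut off at the ends of its scale, and printed value) for the 10 BMP genes, above the line, and for the mean of each marker list, below it, with Hmox1f/f PdgfraCre arrays (f/f Cre) left and Hmox1f/f arrays (f/f) right. Hmox1f/f 6 is lowest for 6 of the 10 genes and for the endothelial, mural and mature adipocyte means.

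The genes whose centred values came nearest to those of Bmp4 over the 6 arrays were Amotl1, a junction protein of the angiomotin family (root mean square distance 0.03 on the log2 scale), Mllt3, a transcription elongation factor (0.03), and Zhx3, a zinc finger and homeobox factor (0.03). Amotl1 was at 9.66, 9.50 and 9.74 with Cre and 9.38, 9.41 and 9.32 without, and, as for Bmp4, array 2 was the lowest of those with Cre. Mllt3 differed by 0.27 and Zhx3 by 0.27, against 0.30 for Bmp4. These genes were picked for their small distance over the same arrays, so their likeness to Bmp4 follows from the choice.

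**Figure D4:**
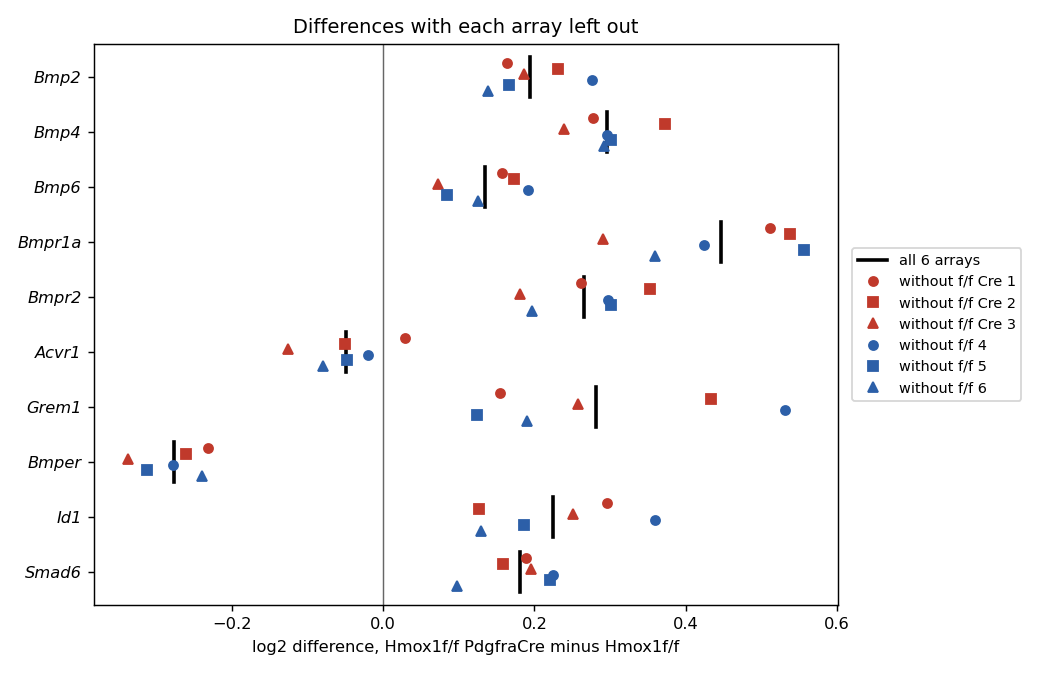
Log2 difference between Hmox1f/f PdgfraCre and Hmox1f/f (horizontal axis) of each of the 10 BMP genes with all 6 arrays (black bar) and with 1 array left out, red where it is a Hmox1f/f PdgfraCre array (f/f Cre) and blue where it is a Hmox1f/f array (f/f). Bmp4 stays between 0.24 and 0.37 and Bmper between -0.34 and -0.23, while Acvr1 crosses 0 without Hmox1f/f PdgfraCre 1.

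The count of 4 genes at an unadjusted p under 0.05 depended on single arrays. Dropping Hmox1f/f PdgfraCre 1 or Hmox1f/f 5 left 3 (Bmp4, Bmpr1a and Bmper), where 11.9% and 14.0% of all genes passed. Dropping Hmox1f/f 4 gave 3 (Bmp4, Bmper and Id1), where 12.7% passed. Only 2 (Bmp4 and Bmper) were left without Hmox1f/f PdgfraCre 3, where 15.8% of all genes passed, or without Hmox1f/f 6, where 9.71% passed. When the array of each genotype highest in epididymal genes was dropped, Hmox1f/f PdgfraCre 1 with Hmox1f/f 6, it was 0, with differences of 0.27 for Bmp4, 0.42 for Bmpr1a, 0.19 for Bmpr2 and -0.20 for Bmper, and 5.30% of all genes then had an unadjusted p under 0.05.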

How the data were processed

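RNA of 6 samples, 200 ng each, was hybridised to Affymetrix mouse gene arrays. The intensity values deposited by the authors are linear and rounded to whole numbers (8 to 20701). The submitters' processing notes name RMA in Affymetrix Expression Console 1.1, which subtracts background, quantile-normalizes the arrays and summarizes probes, so a shift common to most genes would be hidden and changes of dim genes are compressed. Log2 of these values was used here.

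Of 35556 probesets, 21789 had 1 gene symbol, 1621 several and 12146 none, and for each gene the probeset with the highest mean was kept. Groups were taken from the sample titles. Genotypes were compared over all 6 arrays by the two-sided moderated test of limma 3.58.1 (R 4.3.3, genotype as the only term). Benjamini-Hochberg adjustment was made over the 11024 genes above a log2 intensity of 7 on at least 3 arrays. The test was tried on simulated data only with shifts larger than any BMP gene difference found here with all 6 arrays. The study's methods, given for another set of arrays, describe shrinkage of variances before filtering, and that order was run as a further setting. Promoters were searched for 3 motifs on both strands. The labels call the arrays separate pools but give no batch. The 10 genes and all gene lists were chosen with earlier results of these data known. Named besides the 10 genes were Hmox1, Pdgfra, up to 3 further genes per list with an unadjusted p under 0.05, and the 3 genes nearest to the one with the smallest p. Other list genes were named after their values were seen. Other settings were 3 filters, 2 normalizations, trended and robust moderation, arrayWeights, averaged probesets and leaving out each array, with 2 settings added after the data were seen. Figures used matplotlib 3.10.9 in Python 3.11.15.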

Additional observations from a re-analysis of the deposited data

How the results depend on the processing

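No gene passed an adjusted p of 0.05 by limma in any of 16 other settings. All of the differences of the 10 genes, and of Rgma, Fstl1, Nbl1 and Id2, kept their sign in each setting that gave a value, except that of Acvr1, which was 0.029 without Hmox1f/f PdgfraCre 1 and ran between -0.13 and 0.029 with single arrays left out. Leaving out single arrays gave between 1070 and 2314 genes, and between 2 and 4 of the 10, at an unadjusted p under 0.05. With arrayWeights 2 of the 10 remained (Bmp4 and Bmper). Under the stricter filter of the methods, stated there for another set of arrays, which kept 3351 genes and 4 of the 10, there were 593 genes, 1 of the 10 (Bmpr1a) and 1 list gene. With Hmox1f/f PdgfraCre 1 and Hmox1f/f 6 left out together, a setting chosen after the data were seen that leaves 2 arrays per genotype, there were 584 genes, 0 of the 10 and 4 list genes. With variances shrunk over all named genes, also added later, there were 1740 genes and 3 of the 10, and Bmpr2 had an unadjusted p of 0.0572. After a further quantile normalization 61.7% of the genes with an unadjusted p under 0.05 were lower with Cre, against 78.3% in the fit described, and 12 list genes stood there against 8. The causes were not tested. No paired analysis was possible because the replicate numbers 1 to 3 and 4 to 6 are not shared between the genotypes.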
